A study of Homo sapiens with 12 samples.

Results

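The aminoacyl-tRNA synthetases examined here comprised 35 human genes, 19 for cytosolic and 16 for mitochondrial enzymes, chosen by the gene symbol given to each array probe. A probe that named a single gene was found for 34 of them, and all 34 were among the 10469 genes that passed the detection filter. CARS1 had no such probe and was not analysed here. The 34 genes were covered by 39 probes, and the brightest detected probe stood for each gene. GARS1 and KARS1 were counted as cytosolic, although each gene encodes both the cytosolic and the mitochondrial enzyme.

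AGS, an established human gastric adenocarcinoma cell line, was cultured with 2 µg/ml mycophenolic acid (MPA) and profiled on Illumina bead arrays after 0, 12, 24, 48 and 72 h. The drug blocks IMPDH, an enzyme that limits the rate of guanine nucleotide synthesis. The 0 h group had 4 arrays and each later group had 2. The labels named no cells grown without MPA for 12 to 72 h, so the effects of MPA and of time in culture cannot be told apart, and they did not say that replicates were separate cultures, so p-values may measure technical spread only.

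Each synthetase joins an amino acid to its tRNA, using ATP, and so sets the accuracy with which codons are read. Human cells keep separate nuclear genes for cytosolic and mitochondrial enzymes, by convention marked 1 and 2 after the gene symbol, so that charging in the cytosol and charging in the mitochondrion can be regulated apart. Many cytosolic synthetase genes are known targets of ATF4, the transcription factor of the amino acid and integrated stress response, which binds C/EBP-ATF response elements. Several cytosolic enzymes sit together in a multisynthetase complex.

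Promoter sequences of RefSeq (build GRCh38.p14), 250 bases before to 50 bases after each start, matched 30 of the 35 genes, all but LARS1, VARS1, YARS1, AARS2 and VARS2. They were searched on both strands for TGATGNAA, a core of the C/EBP-ATF response element. The motif stood in 7 of 16 cytosolic genes (43.8%), in 1 of 14 mitochondrial genes (7.14%) and in 571 of 15843 protein-coding genes (3.6%). All 7 cytosolic genes were among the 10 with a promoter on the list of known ATF4 targets, and none of the 6 cytosolic genes off that list had a match. A gene could have more than 1 promoter window. The listed genes had 15 windows, 7 with a match (46.7%), and the others 6. The stretches are shown because the motif stood in a larger share of cytosolic than of mitochondrial genes, a feature that the choice of members did not use, and that difference was not tested. Each is written 5′ to 3′ on the strand of its gene, with the motif, or its reverse complement, in capitals.
AARS1 (chr16:70289675-70289704, minus strand): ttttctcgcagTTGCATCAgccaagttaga
CARS1 (chr11:3057407-3057436, minus strand): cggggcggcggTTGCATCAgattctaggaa
GARS1 (chr7:30594834-30594863, plus strand): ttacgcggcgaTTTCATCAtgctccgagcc
IARS1 (chr9:92293692-92293721, minus strand): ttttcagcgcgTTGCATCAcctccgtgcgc
MARS1 (chr12:57488053-57488082, plus strand): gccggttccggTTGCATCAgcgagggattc
NARS1 (chr18:57621804-57621833, minus strand): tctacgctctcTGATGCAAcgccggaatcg
TARS1 (chr5:33440956-33440985, plus strand): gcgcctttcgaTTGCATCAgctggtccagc
YARS2 (chr12:32756076-32756105, minus strand): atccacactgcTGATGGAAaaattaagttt
A match is a description of letters, not of a bound site.

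Synthetase transcripts moved downward in MPA-treated cells. At the mean of the 4 treated times, 18 of 34 genes were lower than at 0 h (52.9%) and 1 was higher (limma, Benjamini-Hochberg adjusted p under 0.05 over all 10469 genes). Among all genes tested, 27.3% were lower and 24.5% higher in the same comparison. The lower genes were 9 of 18 cytosolic (VARS1, FARSA, YARS1, TARS1, HARS1, KARS1, MARS1, QARS1 and RARS1) and 9 of 16 mitochondrial (NARS2, VARS2, FARS2, RARS2, SARS2, TARS2, LARS2, EARS2 and AARS2). With the replicate number as a block in the fit, the calls of FARSA, HARS1, KARS1, MARS1 and QARS1 were lost. The gene that was higher was FARSB, a call that was lost in 9 of the 12 fits that left out 1 array. The median log2 fold change was -0.24 for cytosolic and -0.28 for mitochondrial genes, beside -0.03 for all genes. In a bulk sample, fewer cells of a type and less RNA per cell cannot be told apart.

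At 12 h, 10 of 34 synthetase genes were lower (29.4%) and none higher (limma; 2 were at an unadjusted p under 0.05, WARS1 and PARS2), against 17.9% lower and 16.4% higher of all genes. The count of lower genes was 16 at 24 h (47.1%), 13 at 48 h (38.2%) and 12 at 72 h (35.3%), with 21.3%, 22.8% and 21.4% of all genes lower at these times. FARSB was higher at 48 and 72 h, times at which 20.7% and 21% of all genes were higher, and both calls were lost with median scaling. No other member was higher at any time (20.4% of all genes at 24 h). Of the 34 genes, 23 were lower at 1 or more times (37.7% of all genes), 5 were lower at all 4 times (6.91% of all genes) and 10 were called at none. The 5 were VARS1, FARS2, NARS2, RARS2 and VARS2. In 7 genes, those 5 with QARS1 and SARS2, all 8 MPA arrays lay below every 0 h array, which held for 10.8% of all genes. No synthetase gene had all 8 MPA arrays above every 0 h array, which held for 10.8% of all genes. Only 12 arrays were run, which limits the precision.

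**Figure D1:**
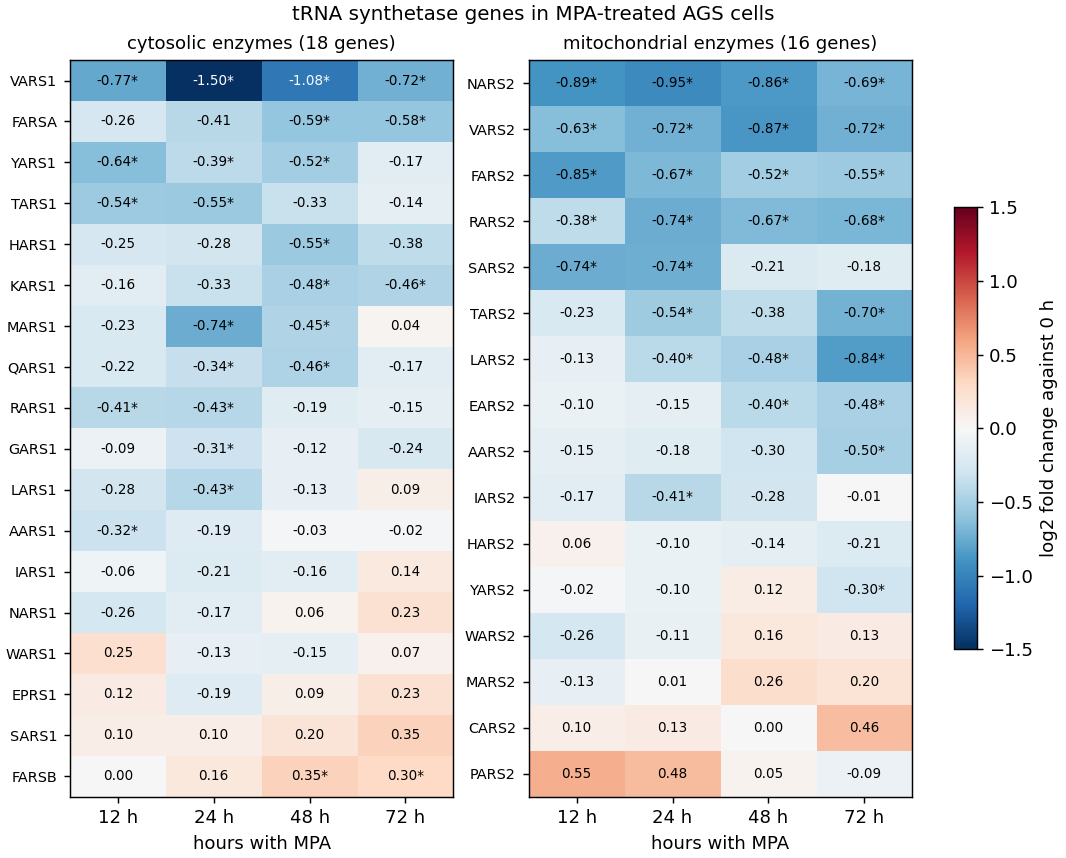
Log2 fold change of each of the 34 measured synthetase genes (down the page) after 12, 24, 48 and 72 h with MPA against 0 h (across), cytosolic genes left and mitochondrial genes right, ordered by the mean of the 4 times; an asterisk marks an adjusted p under 0.05 in limma. Most cells are blue (lower), and VARS1 reaches -1.50 at 24 h. At 72 h 3 of 18 cytosolic and 9 of 16 mitochondrial genes are marked lower, beside 21.4% of all genes tested.

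VARS1, which charges valine in the cytosol, had the lowest fold change of all members. Its log2 signal was 9.9999, 10.13, 10.15 and 10.16 (0 h), 9.34 and 9.35 (12 h), 8.69 and 8.52 (24 h), 9.16 and 8.91 (48 h), and 9.51 and 9.27 (72 h). No MPA array reached the 0 h range, and the 24 h arrays were the lowest. The log2 fold change was -0.77, -1.50, -1.08 and -0.72 at 12, 24, 48 and 72 h (SE 0.12 each), with adjusted p in limma of 0.00041, 1.2e-06, 2e-05 and 0.00047. At 24 h this was 2.83-fold lower than at 0 h. VARS1 was also lower at 24 h than at 12 h, by a log2 difference of -0.73 (SE 0.14, adjusted p = 0.0077 in limma), the only call among 34 members in that step, where 6.91% of all genes were called. That call was lost without 12 h replicate 2 and without 24 h replicate 2. A second VARS1 probe was detected on 0 arrays and was not used.

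The mitochondrial partner VARS2 also fell at every time. Its log2 signal was 9.77, 10.06, 10.23 and 10.10 (0 h), 9.35 and 9.46 (12 h), 9.17 and 9.47 (24 h), 9.13 and 9.21 (48 h), and 9.31 and 9.33 (72 h). All 8 MPA arrays lay below the lowest 0 h array. The log2 fold changes were -0.63, -0.72, -0.87 and -0.72 (SE 0.14 each), with adjusted p between 0.00029 and 0.0037 in limma.

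Methionine, tyrosine and threonine enzymes of the cytosol were lower at 24 h and were not called at 72 h. Their 72 h values depended on the scaling between arrays. With median scaling the 72 h log2 fold change was -0.31 for MARS1, -0.61 for YARS1 and -0.55 for TARS1, against 0.04, -0.17 and -0.14 with quantile normalisation. MARS1, which charges both initiator and elongator tRNAs with methionine, had log2 signals of 9.47, 9.52, 9.81 and 9.71 (0 h), 9.15 and 9.65 (12 h), 8.74 and 9.04 (24 h), 9.30 and 9.06 (48 h), and 9.57 and 9.76 (72 h). Both 24 h and both 48 h arrays were below the 0 h range, and both 72 h arrays were inside it. Its log2 fold change was -0.74 at 24 h (SE 0.16, adjusted p = 0.0031 in limma), -0.45 at 48 h (adjusted p = 0.042) and 0.04 at 72 h (adjusted p = 0.87).

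YARS1, the tyrosine enzyme, had log2 signals of 12.25, 12.14, 12.31 and 12.07 (0 h), 11.69 and 11.42 (12 h), 11.72 and 11.89 (24 h), 11.64 and 11.70 (48 h), and 12.12 and 11.93 (72 h). Its 12, 24 and 48 h arrays all lay below the 0 h arrays, and 1 of the 72 h arrays overlapped them. Log2 fold changes were -0.64, -0.39, -0.52 and -0.17, the last not past the threshold (adjusted p = 0.29 in limma). The 72 h level of YARS1 exceeded its 12 h level by 0.47 (SE 0.14, adjusted p = 0.025 in limma), a call lost with median scaling (0.05), without 12 h replicate 2 (0.33) and without 72 h replicate 1 (0.37).

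TARS1, the threonine enzyme, had log2 signals of 11.65, 11.37, 11.69 and 11.27 (0 h), 11.02 and 10.89 (12 h), 10.88 and 11.01 (24 h), 11.20 and 11.13 (48 h), and 11.52 and 11.20 (72 h). The 0 h arrays spread widely, and only the 72 h group overlapped them. The gene was lower at 12 h (log2 fold change -0.54, adjusted p = 0.012 in limma) and 24 h (-0.55, adjusted p = 0.0087), and stood at -0.33 and -0.14 at 48 and 72 h, with adjusted p of 0.079 and 0.48.

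RARS1, the arginine enzyme of the multisynthetase complex, was lower at 12 h (log2 fold change -0.41, adjusted p = 0.039 in limma) and 24 h (-0.43, adjusted p = 0.029), with -0.19 and -0.15 at 48 and 72 h. With median scaling its 48 and 72 h values were -0.59 and -0.58. QARS1, the glutamine enzyme of the same complex, had all 8 MPA arrays between 12.06 and 12.42, below the 0 h arrays at 12.44 to 12.67. It was lower at 24 h (-0.34) and 48 h (-0.46, SE 0.11, adjusted p = 0.0055 in limma). AARS1, which charges alanine, was lower at 12 h (log2 fold change -0.32, adjusted p = 0.049 in limma), and GARS1, which charges glycine, at 24 h (-0.31). EPRS1, IARS1, SARS1 and WARS1, which charge glutamate and proline, isoleucine, serine and tryptophan, were called at no time. Their mean log2 fold changes were 0.06, -0.07, 0.18 and 0.01, those of EPRS1 and WARS1 being -0.21 and -0.23 with median scaling. A second, dimmer WARS1 probe, detected on all 12 arrays, stood at -0.13 at that mean and -0.29 at 24 h. Neither passed the threshold in a limma fit over probes (adjusted p = 0.30 and 0.12).

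Of the other cytosolic genes, HARS1, KARS1 and FARSA reached their lowest values at 48 h. For HARS1, which charges histidine, the 48 h log2 fold change was -0.55 (SE 0.15, adjusted p = 0.0097 in limma). KARS1, which charges lysine in both compartments, was lower at 48 h (-0.48, adjusted p = 0.015) and 72 h (-0.46, adjusted p = 0.021). FARSA, the alpha subunit of the phenylalanine enzyme, was lower at the same times (-0.59 and -0.58, SE 0.19, adjusted p = 0.026 and 0.027 in limma).

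FARSB, the beta subunit of that enzyme, went the other way on its bright probe. Its log2 signal was 14.97, 14.76, 14.88 and 14.99 (0 h), 14.93 and 14.87 (12 h), 15.12 and 15.01 (24 h), 15.19 and 15.31 (48 h), and 15.29 and 15.12 (72 h). The 12 h arrays lay within the 0 h range and the later arrays above it. The log2 fold change was 0.35 at 48 h (SE 0.11, adjusted p = 0.024 in limma) and 0.30 at 72 h (adjusted p = 0.045). A dim second FARSB probe, detected on 3 of the 4 0 h arrays and on no MPA array, was lower at 24 h by a log2 fold change of -0.61. With the mean of both probes FARSB stood at -0.11 over the 4 times (adjusted p = 0.25), and with median scaling its 72 h value was -0.01.

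**Figure D2:**
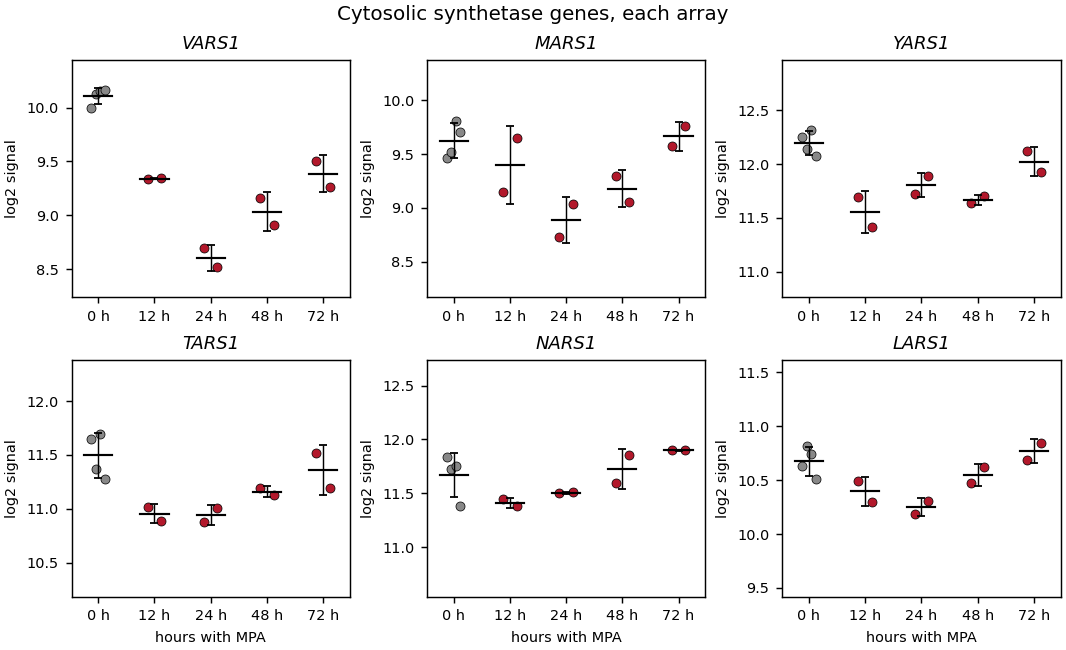
Log2 signal on each array (points, grey at 0 h and red with MPA) of 6 cytosolic synthetase genes over time, with the group mean (bar) and SD (whisker; n = 4 at 0 h, n = 2 at each later time); every panel spans the same range of log2 units. VARS1 stays below its 0 h arrays at every time, while MARS1, NARS1 and LARS1 are back within or above theirs at 72 h. With median scaling the 72 h log2 fold changes of MARS1, NARS1 and LARS1 were -0.31, -0.21 and -0.30, against 0.04, 0.23 and 0.09 with the values shown.

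Among mitochondrial enzymes, NARS2, which charges asparagine, had the lowest mean fold change. Its log2 signal was 9.78, 9.96, 9.67 and 9.50 (0 h), 8.84 and 8.83 (12 h), 8.74 and 8.81 (24 h), 8.67 and 9.06 (48 h), and 9.01 and 9.06 (72 h). Every MPA array was below every 0 h array, and the decrease was in place by 12 h. Log2 fold changes were -0.89, -0.95, -0.86 and -0.69 (SE 0.14 each), with adjusted p between 2e-04 and 0.002 in limma.

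FARS2, the mitochondrial phenylalanine enzyme, had log2 signals of 9.47, 9.69, 9.57 and 9.59 (0 h), 8.66 and 8.79 (12 h), 8.82 and 8.998 (24 h), 8.996 and 9.12 (48 h), and 9.03 and 9.03 (72 h). Its lowest arrays were those of 12 h, and none reached the 0 h range. The log2 fold change was -0.85 at 12 h (SE 0.11, adjusted p = 0.00011 in limma) and -0.55 at 72 h (adjusted p = 0.0018).

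RARS2, the mitochondrial arginine enzyme, had log2 signals of 9.68, 9.70, 9.65 and 9.62 (0 h), 9.24 and 9.32 (12 h), 8.998 and 8.84 (24 h), 9.05 and 8.94 (48 h), and 8.92 and 9.04 (72 h). The 0 h arrays lay close together, well above all 8 MPA arrays. Its log2 fold change was -0.38 at 12 h (SE 0.10, adjusted p = 0.014 in limma), then -0.74, -0.67 and -0.68, with adjusted p between 0.00012 and 0.00027.

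LARS2 and SARS2 ran in opposite directions over the treated times. LARS2, which charges leucine in mitochondria, had log2 signals of 9.47, 9.47, 9.43 and 9.67 (0 h), 9.28 and 9.49 (12 h), 9.01 and 9.22 (24 h), 8.83 and 9.22 (48 h), and 8.74 and 8.61 (72 h). Of its 12 h arrays 1 lay within the 0 h range, and its 72 h arrays were the lowest. The log2 fold change was -0.13 at 12 h (adjusted p = 0.52 in limma) and -0.84 at 72 h (SE 0.14, adjusted p = 0.00044), and 72 h was lower than 12 h by -0.71 (SE 0.16, adjusted p = 0.0051).

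SARS2, the mitochondrial serine enzyme, had log2 signals of 10.29, 10.14, 10.26 and 10.22 (0 h), 9.49 and 9.48 (12 h), 9.49 and 9.49 (24 h), 9.90 and 10.13 (48 h), and 10.04 and 10.06 (72 h). The 12 and 24 h arrays were nearly level and far below 0 h, whereas the 48 and 72 h arrays lay just under it. Log2 fold changes were -0.74 at 12 h and -0.74 at 24 h (SE 0.11, adjusted p = 0.00021 and 0.00014 in limma), then -0.21 and -0.18 (adjusted p = 0.13 and 0.2). With median scaling the 48 and 72 h values were -0.56 and -0.54. SARS2 was the only member called between 24 and 48 h, higher at 48 h by 0.53 (SE 0.12, adjusted p = 0.019 in limma), in a step where 11.1% of all genes were called. That call was lost when 24 h replicate 1, 24 h replicate 2 or 48 h replicate 2 was left out.

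TARS2, the mitochondrial threonine enzyme, was lower at 24 h (log2 fold change -0.54, adjusted p = 0.042 in limma) and 72 h (-0.70, SE 0.20, adjusted p = 0.012). EARS2, which attaches glutamate, was lower at 48 and 72 h (-0.40 and -0.48, adjusted p = 0.021 and 0.0079 in limma). AARS2, for alanine, and YARS2, for tyrosine, were lower at 72 h (-0.50 and -0.30), and IARS2, for isoleucine, at 24 h (-0.41). PARS2, for proline, had the highest mean fold change among mitochondrial genes, at 0.25 (SE 0.18, adjusted p = 0.26 in limma), from a dim probe detected on 10 arrays. Without 72 h replicate 2 this value was 0.38 and passed the threshold (adjusted p = 0.028 in limma), and without 72 h replicate 1 it was 0.12 (adjusted p = 0.48). WARS2, for tryptophan, was detected on 5 arrays and on none at 12 h. CARS2, HARS2 and MARS2 were called at no time.

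**Figure D3:**
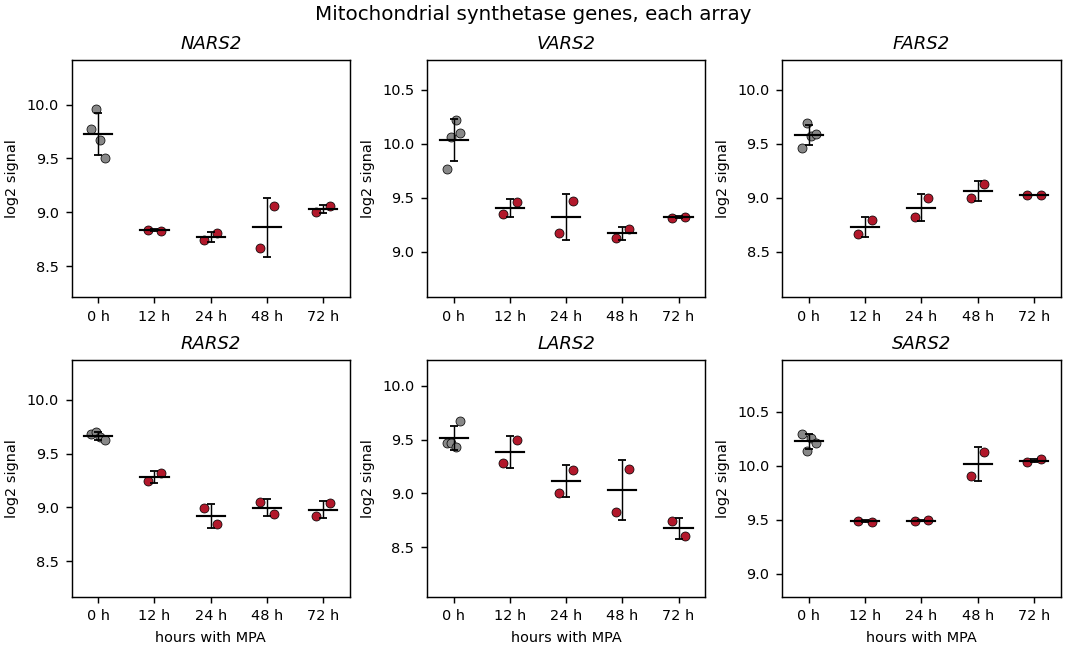
Log2 signal on each array (points, grey at 0 h and red with MPA) of 6 mitochondrial synthetase genes over time, with the group mean (bar) and SD (whisker; n = 4 at 0 h, n = 2 at each later time); every panel spans the same range of log2 units. NARS2, VARS2, FARS2 and RARS2 stay below 0 h throughout, LARS2 is lowest at 72 h, and SARS2 is lowest at 12 and 24 h.

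Counts of lower genes were close in the cytosolic and mitochondrial classes through 48 h and stood apart at 72 h. Cytosolic genes lower than at 0 h numbered 5, 8, 7 and 3 of 18 at 12, 24, 48 and 72 h, and mitochondrial genes numbered 5, 8, 6 and 9 of 16. The shares were 27.8%, 44.4%, 38.9% and 16.7% for cytosolic and 31.2%, 50%, 37.5% and 56.2% for mitochondrial genes. Among all genes 17.9%, 21.3%, 22.8% and 21.4% were lower at these times, so the cytosolic share at 72 h lay under that of all genes. Leaving out 24 h replicate 1 left 1 cytosolic gene at 24 h, and leaving out 24 h replicate 2 left 4 cytosolic and 5 mitochondrial genes. The median log2 fold change was -0.24, -0.32, -0.17 and -0.08 for cytosolic and -0.16, -0.29, -0.29 and -0.39 for mitochondrial genes. Since GARS1 and KARS1 serve both compartments, the cytosolic count at 72 h was also taken without them and was 2 of 16 (12.5%), with a median of 0.01.

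The same was seen array by array, in the mean over each class of each gene's log2 signal minus its 0 h mean. At 72 h the cytosolic mean was -0.051 and -0.123 on the 2 arrays and the mitochondrial mean -0.271 and -0.372. Cytosolic minus mitochondrial was 0.220 and 0.249 at 72 h, against -0.121 to 0.074 on the 4 arrays at 0 h. On the 6 arrays of 12, 24 and 48 h it lay between -0.055 and 0.088. This is a description of 2 arrays, and the difference between the classes was not tested.

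**Figure D4:**
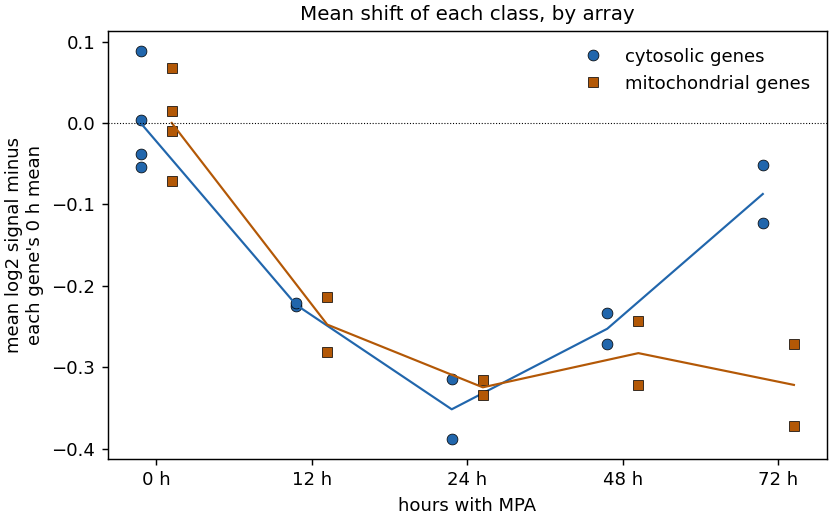
Mean over the 18 cytosolic (circles) and 16 mitochondrial (squares) synthetase genes of the log2 signal minus each gene's 0 h mean, for each array, by hours with MPA; lines join the group means. Both classes lie between -0.21 and -0.39 at 12 to 48 h, and at 72 h the cytosolic arrays lie at -0.051 and -0.123 and the mitochondrial arrays at -0.271 and -0.372.

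The scaling between arrays bears on this contrast. Quantile normalisation held the median log2 fold change of all genes near 0, whereas scaling each array to a common median placed it at -0.31 at 48 h and -0.32 at 72 h. Under that scaling 9 cytosolic and 9 mitochondrial genes were lower at 72 h, where 33.9% of all genes were lower and 8.05% higher. Relative to the median of all genes, the cytosolic median was then -0.18 and the mitochondrial median -0.44 at 72 h. The cytosolic minus mitochondrial mean at 72 h was 0.126 and 0.168 with median scaling.

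Late (48 and 72 h) against early (12 and 24 h) arrays gave 3 synthetase genes higher and 2 lower among 34, where 19.6% of all genes were higher and 19% lower. NARS1, which charges asparagine in the cytosol, had log2 signals of 11.84, 11.72, 11.75 and 11.38 (0 h), 11.45 and 11.38 (12 h), 11.50 and 11.51 (24 h), 11.59 and 11.86 (48 h), and 11.90 and 11.90 (72 h). Its late arrays all lay above its early arrays, while no time was called against 0 h. Its late minus early log2 difference was 0.36 (SE 0.11, adjusted p = 0.024 in limma).

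LARS1, the leucine enzyme of the multisynthetase complex, had log2 signals of 10.63, 10.82, 10.74 and 10.51 (0 h), 10.49 and 10.30 (12 h), 10.19 and 10.31 (24 h), 10.48 and 10.62 (48 h), and 10.69 and 10.85 (72 h). It was lower than 0 h at 24 h (log2 fold change -0.43, adjusted p = 0.015 in limma), and late minus early was 0.34 (SE 0.10, adjusted p = 0.019). SARS2 gave 0.55 (SE 0.09, adjusted p = 5e-04 in limma), LARS2 -0.40 (SE 0.11, adjusted p = 0.015) and EARS2 -0.32 (SE 0.10, adjusted p = 0.027). With median scaling the difference was 0.02 for NARS1, 0.05 for LARS1 and 0.26 for SARS2, with adjusted p of 0.94, 0.86 and 0.22. Each of these calls but that of SARS2 was also lost when single arrays were left out. For 72 h against 12 h, 4 synthetase genes were called (NARS1, YARS1, SARS2 and LARS2), where 33.1% of all genes were. Between 48 and 72 h no synthetase gene was called (limma), in a step where 2.03% of all genes were, and at an unadjusted p under 0.05 there were 4 higher (MARS1, QARS1, VARS1 and YARS1) and 2 lower (LARS2 and YARS2) at 72 h.

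For 12 amino acids, a cytosolic and a mitochondrial gene were both measured, each on its own probe. At the mean of the 4 times both genes were lower for 3 of them (arginine, threonine and valine), only the cytosolic gene for 3 (histidine, methionine and tyrosine), only the mitochondrial gene for 4 (alanine, asparagine, leucine and serine) and neither for 2 (isoleucine and tryptophan). For asparagine the mean log2 fold change was -0.04 for NARS1 (adjusted p = 0.78 in limma) and -0.85 for NARS2. A call in only 1 gene of a pair does not show that the pair differed, which was not tested.

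HARS1 and HARS2 lie head to head on chromosome 5, with 84 bases between their annotated starts. HARS1 was lower at the mean of the 4 times (log2 fold change -0.37, SE 0.11, adjusted p = 0.011 in limma), and HARS2, its mitochondrial partner, stood at -0.10 and was not called. With the replicate block HARS1 stood at -0.21 and its call was lost. The difference between HARS1 and HARS2 was not tested. The stretch between the starts is shown because both genes share it (RefSeq, GRCh38.p14, chr5:140691371-140691454), written 5′ to 3′ on the plus strand, the strand of HARS2.
HARS1 and HARS2: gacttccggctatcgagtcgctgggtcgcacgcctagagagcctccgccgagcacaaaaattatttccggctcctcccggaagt

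No measured cytosolic gene on the list of known ATF4 targets was higher than at 0 h at any time (limma). Among all genes, 33.9% were higher at 1 or more times. Of the 11 listed genes measured, 3 (MARS1, TARS1 and YARS1) were lower at the mean of the 4 times (27.3%) and 0 higher. Their median log2 fold change was -0.14. Of the 7 cytosolic genes off that list, 6 were lower (85.7%) and 1 higher (FARSB) at that mean, with a median of -0.36. With the replicate block, the calls of FARSA, HARS1, KARS1, QARS1 and FARSB off the list were lost, as was that of MARS1 on it. In that comparison 27.3% of all genes were lower and 24.5% higher. At 72 h, 0 of the 11 listed genes were lower and 0 higher, with a median of 0.07, and of the 7 others 3 were lower and 1 higher (FARSB), with a median of -0.38, beside 21.4% lower and 21% higher of all genes. The 6 measured cytosolic genes with the motif shown above had 3 lower at 24 h and 0 at 72 h, with 0 higher, and the 9 without it had 2 lower at 24 h and, at 72 h, 2 lower and 1 higher, where 21.3% (24 h) and 21.4% (72 h) of all genes were lower. LARS1, VARS1 and YARS1, which had no promoter sequence, entered neither count, and each was lower at 24 h. Neither the difference between listed and other genes nor that between genes with and without the motif was tested. Of the 7 enzymes of the multisynthetase complex, 4 were lower at the mean of the 4 times (KARS1, MARS1, QARS1 and RARS1) and 0 higher. Among these, the calls of KARS1, MARS1 and QARS1 were lost with the replicate block. Of the 11 cytosolic genes outside it, 5 were lower and 1 higher, beside 27.3% lower and 24.5% higher of all genes.

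ATF4 itself had log2 signals of 13.17, 13.18, 13.15 and 13.20 (0 h), 12.70 and 12.19 (12 h), 12.91 and 12.82 (24 h), 12.91 and 13.02 (48 h), and 13.30 and 13.35 (72 h). Its arrays were lowest at 12 h and above 0 h at 72 h. The log2 fold change was -0.73 at 12 h (SE 0.13, adjusted p = 0.0011 in limma), and its 72 h level exceeded its 12 h level by 0.88 (SE 0.15, adjusted p = 0.0011). ASNS, asparagine synthetase and a widely used ATF4 target, was higher at all 4 times, with 10.95 to 11.34 on the 8 MPA arrays and 10.47 to 10.70 at 0 h. DDIT3, the stress transcription factor CHOP, was higher at all 4 times, by 1.05, 1.64, 1.46 and 1.63 (SE 0.12 each). Across the wider ATF4 program, 9 of 25 measured genes were higher (36%) and 8 lower (32%) at the mean of the 4 times, beside 24.5% higher and 27.3% lower of all genes. Regulators and stress effectors had 5 of 10 higher and 2 lower, amino acid synthesis genes 3 of 9 higher and 4 lower, and amino acid transporters 1 of 6 higher and 2 lower. PYCR1, which makes proline, was lower by -1.59 at 24 h (SE 0.18, adjusted p = 1.7e-05 in limma). NUPR1, a stress-induced regulator detected on 0 of 4 arrays at 0 h, was at least 1.60-fold higher at 24 h (adjusted p = 0.00031 in limma). SLC7A11, the cystine transporter, was not detected on any MPA array and was at least 1.40-fold lower at 24 h, measured against a 0 h group detected on 3 of 4 arrays (adjusted p = 0.004 in limma); both bounds set the undetected group at the dimmest detected signal of its arrays.

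Of 8 measured genes of tRNA export and delivery, 5 were lower (62.5%) and 0 higher at the mean of the 4 times, beside 27.3% lower and 24.5% higher of all genes. At single times 0, 2, 4 and 2 of the 8 were lower at 12, 24, 48 and 72 h, and the 2 at 24 and 72 h (25%) were close to the 21.3% and 21.4% of all genes. XPOT, which exports tRNA from the nucleus, had all 8 MPA arrays between 8.56 and 9.10, below the 0 h arrays at 9.13 to 9.43, and was lower at 24 h by -0.67 (SE 0.14, adjusted p = 0.0023 in limma). EEF1G and EEF1D, subunits of the exchange factor that recharges the elongation factor delivering aminoacyl-tRNA, were lower at 72 h by -0.62 and -0.62. The 72 h arrays lay apart, at 12.44 and 11.97 for EEF1G and 11.62 and 10.85 for EEF1D. The lowest 0 h arrays of these genes were at 12.66 and 11.73. DTD1, which removes D-amino acids from tRNA, was lower at 24 h by -0.49.

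On the mitochondrial side, 9 of 24 measured genes for tRNA charging, maturation and elongation were lower (37.5%) and 3 higher (12.5%) at the mean of the 4 times, beside 27.3% lower and 24.5% higher of all genes. At 12, 24, 48 and 72 h, 5, 9, 5 and 3 genes were lower and 1, 1, 4 and 4 higher, so that at 48 and 72 h the lower share (20.8% and 12.5%) lay under that of all genes (22.8% and 21.4%). GTPBP3 and TRMU, which modify the wobble uridine of mitochondrial tRNAs, were lower at 12 h by -0.94 and -0.77 (SE 0.13 and 0.15, adjusted p = 0.00012 and 0.0016 in limma). TSFM, the mitochondrial elongation factor Ts, was lower at 24 h by -0.92 (SE 0.19, adjusted p = 0.0018 in limma). GATC, a subunit of the amidotransferase that completes mitochondrial glutaminyl-tRNA, was lower at 72 h by -0.71 (SE 0.12, adjusted p = 0.00056 in limma). Its 12 h arrays, at 7.97 and 7.97, lay above the 0 h arrays at 7.41 to 7.78.

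**Figure D5:**
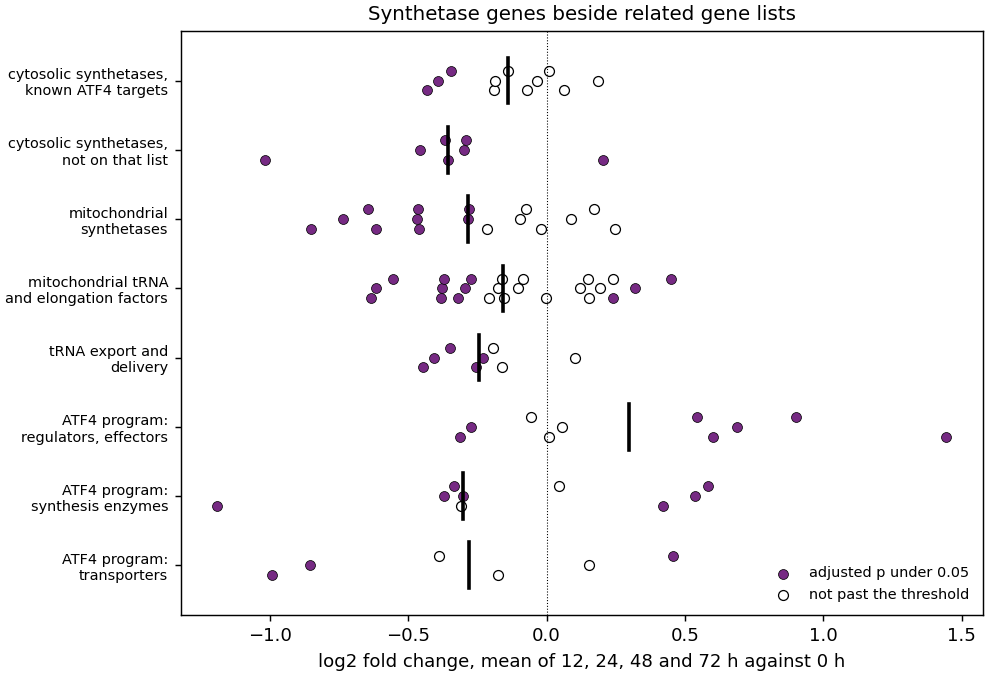
Log2 fold change at the mean of 12, 24, 48 and 72 h with MPA against 0 h for each measured gene (points; purple where the adjusted p in limma was under 0.05, white otherwise) of the synthetase lists and of related lists, with each list's median as a black bar; points are spread vertically only for legibility. Cytosolic synthetases off the ATF4 list and mitochondrial synthetases have medians of -0.36 and -0.28, whereas regulators and effectors of the ATF4 program have a median of 0.30.

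Between 14077 and 15764 probes were detected per array. The spread of deposited intensity, taken as its 95th percentile over its 5th, was 29.4 and 32.3 (12 h), 29.5 and 26.7 (24 h), 22.3 and 26.2 (48 h), and 25.5 and 23.2 (72 h), against 36.9, 32.2, 30.9 and 24.3 at 0 h. This spread was lower on the 48 and 72 h arrays than on 3 of the 4 arrays at 0 h, and its part in the results was not tested. The SD over synthetase genes of the log2 difference between 2 arrays was 0.17 to 0.31 within groups and 0.21 to 0.46 between groups. IMPDH2, the gene for the main target of MPA, was higher at all 4 times, by a mean log2 fold change of 0.73 (SE 0.09). Of 7 epithelial markers, 5 were detected on all 12 arrays, among them EPCAM and KRT8, while KRT18 was detected on none. Detected on no array were 5 of 6 fibroblast, 2 of 4 leukocyte and 3 of 4 endothelial markers, and LYZ, a leukocyte marker also made by gastric epithelium, was detected on all 12.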

How the data were processed

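RNA of AGS cells was hybridised to 12 Illumina HumanHT-12 arrays. The authors deposited bead intensity per probe with a detection score, not normalised, and a table of log2 values made with lumi (settings not given in the sources used here). Main values came from the intensities, with normexp background correction from negative controls inferred from the detection column, offset 16, log2 and quantile normalisation (limma 3.58.1, statmod 1.5.0, R 4.3.3). The deposited log2 values served as an alternative.

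Of 48803 probes, 28098 named a single gene in the platform annotation, 13 several and 20692 none. Symbols of 28059 probes were updated through RefSeq and 39 kept. A probe was kept when its detection p was below 0.01 on 2 or more arrays, and the brightest stood for its gene, giving 10469 genes. All 5 groups entered 1 limma fit, with Benjamini-Hochberg adjustment over all genes and a threshold of 0.05. Genes described singly were those with the largest called changes in each class and list, the extremes of each class and a few regulators, with further members named to account for all. Members and lists were chosen with earlier results of these data known. Replicate numbers were not used to pair the arrays in the main fit. Scripts were tested on simulated data. Alternatives were the deposited values, background, scaling, offset, filter, probe choice, variance trend, array weights, the samples fitted, the replicate block and leaving out each array.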

Additional observations from a re-analysis of the deposited data

Results flagged for a closer look

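The differences of late against early and of 72 h against 12 h, tested directly in limma, called 6 synthetase genes between them. Late (48 and 72 h) minus early (12 and 24 h) was 0.34 for LARS1, 0.36 for NARS1, 0.55 for SARS2, -0.32 for EARS2 and -0.4 for LARS2 on the log2 scale, which is 3 of 34 members higher (8.82%) and 2 lower (5.88%), under the 19.6% and 19% of all genes. At 72 h minus 12 h, the log2 difference was 0.49 for NARS1, 0.47 for YARS1, 0.56 for SARS2 and -0.71 for LARS2, 4 of 34 members where 33.1% of all genes were called. With median scaling the calls of NARS1, YARS1 and SARS2 for 72 h against 12 h were lost (0.07, 0.05 and 0.21), as were those of LARS1, NARS1 and SARS2 for late against early. For 72 h against 12 h, the NARS1 call was also lost without any single 12 h or 72 h array (0.45 to 0.52). That of YARS1 was lost when only the groups compared were fitted. The groups hold 2 arrays per time. None of 34 members had an array far from the others among the 4 arrays at 0 h. That check looks at single arrays and cannot show pairs of arrays that lie apart. For FARSA the 0 h signals were 8.69 and 8.73 (replicates 1 and 2) and 9.12 and 9.13 (replicates 3 and 4).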

How the results depend on the processing

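With 2 arrays per treated time, single arrays move the counts. Leaving out 1 array gave 2 to 5 (12 h), 1 to 8 (24 h), 3 to 7 (48 h), 1 to 4 (72 h) and 7 to 10 (mean of the 4 times) cytosolic genes lower. For mitochondrial genes lower, the ranges were 4 to 5, 5 to 8, 4 to 7, 6 to 9 and 7 to 9. Genes higher ranged from 0 to 1 in both classes. Of all synthetase genes, 0 to 1 were called for 24 h against 12 h and 0 to 1 for 48 h against 24 h, 3 to 5 for 72 h against 12 h and 2 to 7 for late against early. The 12 h cytosolic count was 3 without 0 h replicate 2 or 3 and 2 without 12 h replicate 2. The 24 h cytosolic count was 5 and 4 without 0 h replicates 2 and 3, and 1 and 4 without 24 h replicates 1 and 2. The 48 h cytosolic count was 3 without 48 h replicate 2, and the 72 h count 1 without 72 h replicate 2. NARS1 at the mean of the 4 times ranged from -0.13 to 0.020, turning positive without 0 h replicate 1. At that mean the call of FARSB, the only gene called higher, was lost in 9 of these 12 fits (adjusted p of 0.054 to 0.17), that of RARS1 in 6 and that of MARS1 in 4, and PARS2 was called higher without 72 h replicate 2 (0.38).

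Median scaling gave 2 (12 h), 12 (48 h) and 9 (72 h) cytosolic genes lower and 11 mitochondrial genes lower at 48 h. Cytosolic genes higher were then 0 throughout, 0 synthetase genes were called for 48 h against 24 h, 9 for 72 h against 12 h and 8 for late against early. All genes were then lower in 34.1% and higher in 9% at 48 h. Without the detection filter, 3 cytosolic genes were lower at 12 h, and 0 higher at 72 h and at the mean. Fitting only the groups compared gave 3 cytosolic genes lower and 1 mitochondrial gene higher at 12 h, 0 cytosolic genes higher at 72 h and 0 calls for 48 h against 24 h. With the mean of a gene's probes FARSB turned to -0.11 and 0 cytosolic genes were higher at 48 h, 72 h and the mean.

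The deposited log2 values gave 2 calls for 48 h against 24 h, 8 for 72 h against 12 h and 9 for late against early. Without background correction these were 2, 7 and 8, array weights gave 2 for the first, a variance trend 9 and 10 for the other pair, and offset 50 gave 8 for late against early. The causes were not tested. With the replicate number as a block, cytosolic genes lower were 5, 3 and 1 at 24, 48 and 72 h and 4 at the mean, and genes higher 0. Block terms for replicates 3 and 4 take up those 0 h arrays, so this fit compares MPA arrays with 0 h replicates 1 and 2 only. In that fit the calls of MARS1, FARSA, HARS1, KARS1 and QARS1 at the mean were lost (log2 fold changes -0.21, -0.25, -0.21, -0.21 and -0.28). Replicates 1 and 2 were checked for pairing between groups, with r of -0.142 to 0.150 over 10 pairs of groups, 1 over 0.1. Replicates 3 and 4, which only the 0 h group has, did not enter that check, so it cannot tell whether they differ from 0 h replicates 1 and 2. In the signals, 0 h replicates 3 and 4 both lay above 1 and 2 for FARSA, HARS1, KARS1 and MARS1. For QARS1 they overlapped, and for other members, such as MARS2 and NARS2, they lay below. These differences were not tested. Lower counts of mitochondrial genes at 12, 24 and 72 h and at the mean stayed within 1.5 times in every alternative that kept all arrays. Detection limits WARS2 and PARS2, which lie near background.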
